A study of Homo sapiens with 4 samples.

Results

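The SPARC family is a group of secreted glycoproteins that share a follistatin-like domain, most of them with a calcium-binding extracellular domain beside it. The 8 members, SPARC, SPARCL1, SMOC1, SMOC2, SPOCK1, SPOCK2, SPOCK3 and FSTL1, were taken by their gene symbols from 60623 genes in the files, and 7 of the 8 passed the filter on low counts that left 17058 genes for testing. These proteins are matricellular: they sit in the matrix and alter how cells meet it rather than bearing load themselves. SPARC binds fibrillar collagens and loosens cell adhesion, and it is widely used as a marker of epithelial-to-mesenchymal transition (EMT) and of stroma in carcinomas. SPARCL1 (hevin) is its closest relative, SMOC1 and SMOC2 act on bone morphogenetic protein (BMP) signalling, SPOCK1 to SPOCK3 encode the testicans, proteoglycans that modulate proteases, and FSTL1 is a follistatin-like protein that binds BMP4 and the surface proteins DIP2A and TLR4.

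RNA was sequenced from the established human cell line BICR10, labelled as head and neck cancer, after lentiviral delivery of a control hairpin (shControl, 2 libraries) or of a hairpin against YEATS2 (shYEATS2, 2 libraries), with puromycin selection in both conditions. YEATS2 is a chromatin reader of acylated histones, and the comparison asks what its loss does to the family's transcripts. The study lists a pair of YEATS2 hairpins without saying which of them each shYEATS2 library carried. It describes its replicates in general as biological, while its sequencing methods and the labels do not say how the 2 libraries of a condition were separated, so the p-values measure the spread between these libraries. SPARC is also the gene the study followed up, picked in part from these libraries, so its change here is not independent evidence.

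YEATS2 itself was measured at 66.1 and 66.7 CPM (counts scaled to a common library size with TMM factors) in shControl and at 29.2 and 29.1 CPM in shYEATS2 (log2 fold change −1.19, SE 0.08, edgeR adjusted p = 3.55e-21). Totals on genes ran from 39824898 to 47297970 counts in shControl and from 11334133 to 24072396 in shYEATS2, so 1 count stood for 0.0220 to 0.0848 CPM and low members were measured least precisely in shYEATS2. The lower depth cannot be told apart from the condition.

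The defining markers gave a mixed picture. Of the 10 epithelial markers, 8 were tested, 6 were called lower and 1 higher, with a median log2 fold change of −1.11, and the list summed to 528 to 534 CPM in shControl and 319 to 344 CPM in shYEATS2. KRT8, SFN and KRT18 were well expressed in shControl, at 266, 130.0 and 111 CPM, and made up most of the list's sum. KRT5 (15.7 CPM), DSP (5.73), KRT14 (1.21), EPCAM (1.01) and the untested KRT17 (0.331) were far lower there. Among the tested epithelial markers KRT5 had the largest fall, to 1.19 CPM (log2 fold change −3.78). TP63 had 0 to 3 counts a library, and CDH1 (E-cadherin), the only one called higher, went from 0.335 ± 0.0249 to 2.48 ± 0.510 CPM (SD, n = 2). The 10 fibroblast markers summed to 6223 to 6302 CPM in shControl and 2021 to 2149 CPM in shYEATS2, with 8 of the 9 tested called lower, 0 higher (0 also at an unadjusted p under 0.05), a median of −0.94 and THY1 at 0 to 13 counts. Endothelial markers summed to 35.8 to 36.7 and 19.1 to 20.4 CPM, nearly all of it KDR, with TIE1 and CLDN5 at 0. Leukocyte markers summed to 1.69 to 1.85 and 0.553 to 1.44 CPM, with CD3E and CD68 at 0. The summed CPM of each marker list, the near-absent leukocyte list included, was thus lower in shYEATS2, as SPARC was. The endothelial and leukocyte sums were each mostly 1 gene, KDR and CD14, so they do not show a fall shared by their lists. Of 3 tested endothelial markers 1 (KDR) was called lower and 1 (TEK, at 4 to 9 counts a library) higher, with a median log2 fold change of 0.08. CD14, called lower, was the only leukocyte marker tested. Within the epithelial list CDH1 rose and SFN was not called. The part of these lists in the results below was not tested. In bulk RNA, fewer cells of a type and less RNA per cell cannot be told apart.

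The promoters of SPARC and FSTL1 are shown, SPARC as the member with the deepest fall and FSTL1 as the member with the highest and steadiest level. RefSeq promoters (GRCh38.p14) were matched for 7 of the 8 members, all but SPOCK1. Each line below gives the bases directly before the first annotated exon, 5′ to 3′ on the gene's own minus strand, and capitals mark every GGAGGA. The SPARC stretch is chr5:151686976-151687165 and the FSTL1 stretch chr3:120451017-120451242.
SPARC: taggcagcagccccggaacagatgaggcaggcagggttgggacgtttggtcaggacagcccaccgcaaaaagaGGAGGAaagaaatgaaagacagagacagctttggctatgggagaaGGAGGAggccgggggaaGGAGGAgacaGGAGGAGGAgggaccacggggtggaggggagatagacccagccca
FSTL1: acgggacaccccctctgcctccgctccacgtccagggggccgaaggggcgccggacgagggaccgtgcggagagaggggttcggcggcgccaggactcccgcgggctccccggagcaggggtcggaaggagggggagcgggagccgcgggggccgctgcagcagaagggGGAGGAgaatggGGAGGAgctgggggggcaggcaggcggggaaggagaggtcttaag

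Motifs were searched on both strands of the 250 bases before the start. The SPARC promoter held GGAGGA at 5 positions, the last pair of them overlapping in GGAGGAGGA. These letters were chosen after the SPARC promoter had been read, 31.2% of the 27305 promoters hold them at least once, and 0.637% hold them at 5 or more positions. FSTL1, SPOCK2 and SMOC2 held 2 each, SPOCK3 held 1, and SPARCL1 and SMOC1 held 0. The SPARC window had no GGGCGG (the GC box, in 42.3% of promoters), whereas the FSTL1 window had 1. TATAAA, in 11.1% of promoters, was in the windows of SPARCL1 and SMOC1, and TGANTCA (the AP-1 site, in 6.60%) was in none of the 7. The FSTL1 window was also richer in G and C, at 74.4% with 24 CpG dinucleotides against 59.2% and 7 for SPARC and medians of 58% and 11 over all promoters. A match is a description of letters and not of binding.

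In the shControl libraries FSTL1 dominated the family. On the scale of CPM per kb of exon, which allows levels of different genes to be compared, FSTL1 stood at a mean of 68.5, SPOCK3 at 1.5, SPARC at 1.40, SPOCK1 at 0.851, SPOCK2 at 0.389, SPARCL1 at 0.243 and SMOC1 at 0.0813. SPOCK3 and SPARC could not be ordered, since their library ranges of 1.47 to 1.54 and 1.30 to 1.51 overlap, while the other neighbours in this order did not overlap. SMOC2, a matrix protein of basement membranes, had 0 counts in all 4 libraries, which allows up to 0.0661 to 0.255 CPM by the limit of 3 counts a library. FSTL1 alone made up 96.5% and 96.8% of the family's CPM in shControl and 97.4% in each shYEATS2 library. Among 16990 tested genes with a known length, FSTL1 ranked at percentile 97.0 in shControl and SPARC at percentile 37.6, so SPARC was a transcript of less than median level in the control libraries.

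**Figure D1:**
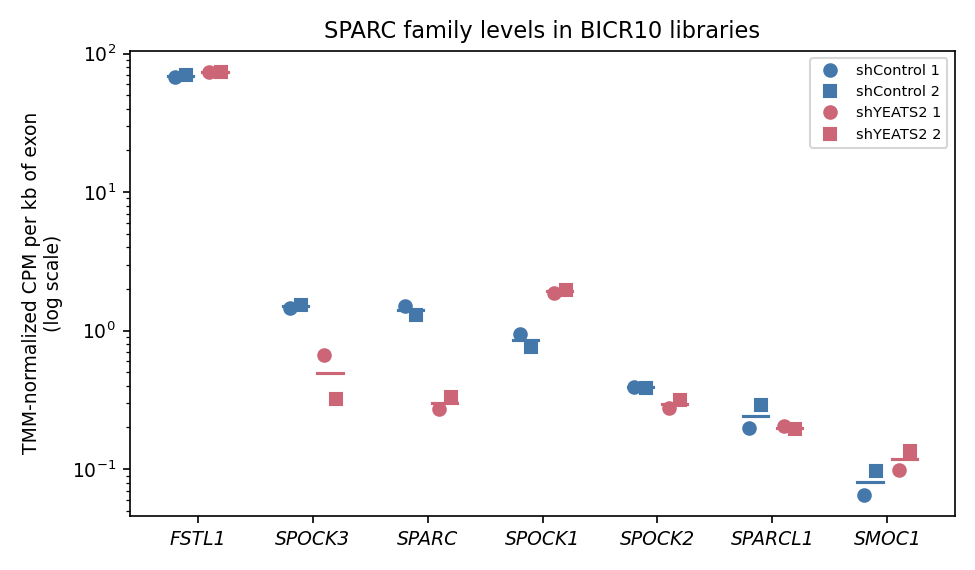
Level of each detected family member in CPM per kb of exon (log axis), with 1 point for each library (blue shControl, red shYEATS2, circles replicate 1, squares replicate 2) and a bar at each condition's mean. FSTL1 sits near 70 in all 4 libraries, the shYEATS2 points of SPARC (0.272 and 0.329) and SPOCK3 (0.669 and 0.322) lie below their shControl points, and those of SPOCK1 (1.88 and 1.96) lie above.

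After the knockdown 2 members, SPARC and SPOCK3, were called lower, 1 member, SPOCK1, was called higher, and 4 were not called (edgeR quasi-likelihood test, Benjamini-Hochberg adjusted p under 0.05 over all 17058 genes). Over all tested genes 23.6% were called lower and 22.6% higher, so the family's counts of 2 and 1 among 7 tested members lie near the background. With library totals in place of TMM the calls over all genes shifted from 4019 lower and 3857 higher to 2567 lower and 5441 higher, while the median gene moved from −0.01 to 0.13 on the log2 scale. Under that scaling SPARC, SPOCK3 and SPOCK1 kept their calls at −2.13, −1.32 and 1.29. Complete separation of the libraries was equally common in both directions, with 3 of the 7 tested members below (SPARC, SPOCK2 and SPOCK3; 36.3% of all tested genes) and 3 above (SPOCK1, SMOC1 and FSTL1; 35.3%).

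**Figure D2:**
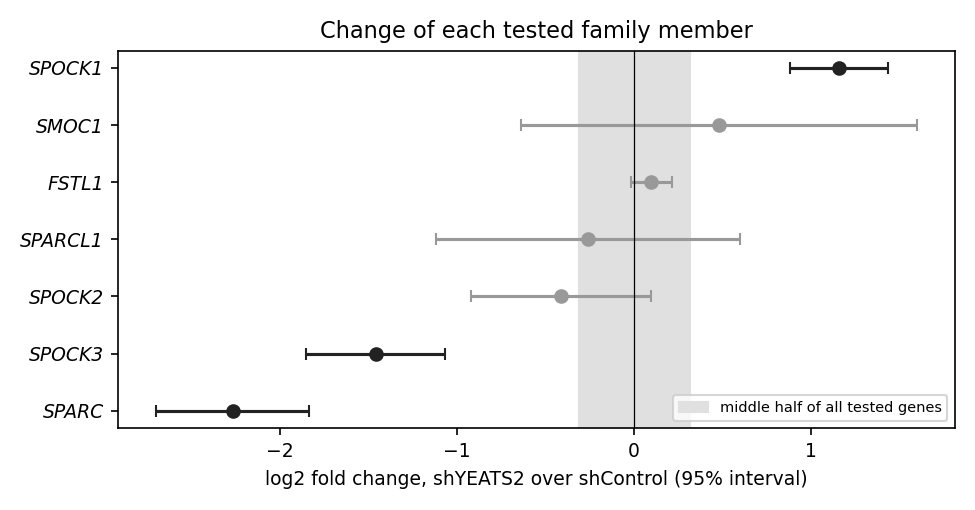
Log2 fold change of each tested member, shYEATS2 over shControl, with the 95% interval from the edgeR fit (black where called, grey where not) and a shaded band from −0.31 to 0.32 that spans the quartiles of all tested genes. The intervals of SPARC (−2.70 to −1.83), SPOCK3 (−1.85 to −1.06) and SPOCK1 (0.88 to 1.44) lie off 0, and those of the other 4 members include it.

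SPARC (ENSG00000113140; GRCh38 chromosome 5, 151661096 to 151686975, minus strand) was counted 317 and 228 times in shControl and 32 and 18 times in shYEATS2. Its levels were 6.99 and 6.03 CPM in shControl and 1.26 and 1.53 CPM in shYEATS2. Both shYEATS2 libraries were far below both shControl libraries, and counting error did not bridge the gap, since the exact 95% Poisson intervals ended at 2.41 CPM in shYEATS2 and began at 5.28 CPM in shControl. The mean fell from 6.51 ± 0.675 to 1.40 ± 0.187 CPM (SD, n = 2), a log2 fold change of −2.27 (SE 0.22, 95% interval −2.70 to −1.83, edgeR adjusted p = 4.28e-14), with 20.8% of the level remaining. Over all tested genes, 112 (0.657%) fell at least as far. Per kb of exon SPARC went from percentile 37.6 to percentile 14.9 of the tested genes. The exons of SPARC share 191 bases with the antisense gene CLMAT3, which had 0 counts in all 4 libraries.

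SPARCL1 (ENSG00000152583; chromosome 4, 87473335 to 87531061, minus strand), the closest relative of SPARC, had 31 and 38 counts in shControl, then 18 and 8 in shYEATS2. These were 0.683 and 1.01 CPM in shControl and 0.711 and 0.679 CPM in shYEATS2, so the conditions overlapped. The log2 fold change of −0.26 (SE 0.43, edgeR adjusted p = 0.657) came with an interval of −1.12 to 0.60, which covers a fall and a rise. A change of this low gene was not detectable at this depth, although the interval does not reach the −2.27 of SPARC.

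The testicans moved in different directions. SPOCK3 (testican-3; ENSG00000196104; chromosome 4, 166733384 to 167234796, minus strand), which inhibits the activation of MMP2 by membrane-type metalloproteinases, had 298 and 261 counts in shControl, then 76 and 17 in shYEATS2. Its levels were 6.57 and 6.91 CPM in shControl and 3.0 and 1.44 CPM in shYEATS2. The shYEATS2 libraries were both low but also unlike each other, with Poisson intervals of 2.36 to 3.75 and 0.840 to 2.31 CPM that do not overlap. The mean fell from 6.74 ± 0.238 to 2.22 ± 1.10 CPM (SD, n = 2; log2 fold change −1.46, SE 0.20, edgeR adjusted p = 1.01e-08). The size of the fall rested on the library, at −2.23 without shYEATS2 replicate 1 and −1.17 without shYEATS2 replicate 2, and the call held in both.

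SPOCK1 (testican-1; ENSG00000152377; chromosome 5, 136975298 to 137598379, minus strand), an inhibitor of cathepsin L that has been tied to EMT, had 266 and 177 counts in shControl and 295 and 143 in the shallower shYEATS2 libraries. Its levels were 5.86 and 4.68 CPM in shControl and 11.6 and 12.1 CPM in shYEATS2. Both shYEATS2 libraries were above both shControl libraries and close to each other. The mean rose 2.23-fold, from 5.27 ± 0.835 to 11.9 ± 0.346 CPM (SD, n = 2; log2 fold change 1.16, SE 0.14, edgeR adjusted p = 1.21e-10). On the scale of CPM per kb it rose from 0.851 to 1.92 and so stood second to FSTL1 in shYEATS2, ahead of SPOCK3 and SPARC.

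SPOCK2 (testican-2; ENSG00000107742; chromosome 10, 72059034 to 72089032, minus strand), known to counter the inhibition of membrane-type metalloproteinases by the other testicans, had 113 and 94 counts in shControl, then 45 and 24 in shYEATS2. Both shYEATS2 libraries, at 1.78 and 2.04 CPM, were below the 2.49 CPM of each shControl library. The log2 fold change of −0.41 (SE 0.25, 95% interval −0.92 to 0.10) did not pass the test (edgeR adjusted p = 0.188).

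SMOC1 (ENSG00000198732; chromosome 14, 69854131 to 70032366, plus strand), a BMP antagonist in development, had 13 and 16 counts in shControl (0.287 and 0.423 CPM), then 11 and 7 in shYEATS2 (0.434 and 0.594 CPM). The shYEATS2 values were above the shControl values, but the closest pair differed by less than the 0.0395 CPM of 1 count. The log2 fold change of 0.48 (SE 0.56, 95% interval −0.64 to 1.60, edgeR adjusted p = 0.509) left a change of either direction undetected at this depth.

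FSTL1 (ENSG00000163430; chromosome 3, 120392293 to 120451016, minus strand), the member with the most counts, was measured at 634 and 656 CPM in shControl and at 694 and 687 CPM in shYEATS2. Both shYEATS2 libraries were slightly higher, 691 ± 4.42 against 645 ± 15.3 CPM (SD, n = 2). The log2 fold change of 0.10 (SE 0.06, 95% interval −0.02 to 0.21) did not pass the test (edgeR adjusted p = 0.157), and its interval bounds any change at far less than that of SPARC. With library totals alone, the scaling that lifted the median gene to 0.13, FSTL1 reached 0.23 and was called higher (edgeR adjusted p = 9.72e-04). Its exons share 316 bases with the opposite-strand pseudogene BTNL12P, which had 4 to 48 counts a library against 8102 to 28764 for FSTL1, and 62 bases with MIR198, which had 0.

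Ratios of counts within a library need no scaling between libraries. SPARC had 1.19 and 1.29 counts for each count of SPOCK1 in shControl and 0.108 and 0.126 in shYEATS2. Against FSTL1 the ratio of SPARC counts was 0.0110 and 0.00920 in shControl and 0.00182 and 0.00222 in shYEATS2. SPOCK1 against SPOCK3 moved the other way, from 0.893 and 0.678 to 3.88 and 8.41. These 3 ratios separated the conditions without overlap. Each set a member lower in both shYEATS2 libraries against one higher in both, so this followed from their CPM and adds no support. The ratio of SPARCL1 to SMOC1, neither of them called, separated too. The ratio of SPARC to SPOCK3 did not, at 1.06 and 0.874 in shControl and 0.421 and 1.06 in shYEATS2, so an unequal fall of these members was not shown.

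SPARC works in the matrix through the proteins it binds, and the collagens among them fell with it. Of 13 extracellular ligands of SPARC, 11 were tested, 9 were called lower and 2 higher, beside 23.6% and 22.6% over all tested genes. The median log2 fold change was −0.56 against −0.01. At 2-fold or more 3 ligands were called lower, beside 631 of the 17058 tested genes. COL3A1, a fibrillar collagen, had the largest fall of the list, from 1035 ± 11.6 to 235 ± 10.2 CPM (SD, n = 2; log2 fold change −2.14, SE 0.06, edgeR adjusted p = 1.41e-40). COL1A1 (−1.65) and COL1A2 (−1.67), the chains of type I collagen, also fell. TGM2, a transglutaminase that crosslinks matrix proteins, had the largest rise of the list at 0.40 (SE 0.16, edgeR adjusted p = 0.0322), a call that was lost in 7 of 14 alternatives. COL1A1 and COL1A2 are also on the fibroblast list above.

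Of 20 other matricellular genes, 17 were tested, 7 were called lower, 5 higher and 5 not called, with a median of −0.57. Against 23.6% lower and 22.6% higher over all tested genes, the higher calls lie near the background. CCN5, a growth-restraining member of the CCN family, fell from 4.34 and 3.2 CPM to 0.750 and 1.02 CPM (log2 fold change −2.17, SE 0.28, edgeR adjusted p = 1.35e-09). CCN2, the connective tissue growth factor, rose from 34.9 and 36.2 CPM to 191 and 172 CPM (log2 fold change 2.36, SE 0.07, edgeR adjusted p = 5.44e-40). Members of the CCN family were thus among both the falls and the rises. POSTN (periostin, −1.98), TGFBI (−1.13) and THBS1 (thrombospondin 1, −0.57) fell as well.

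**Figure D3:**
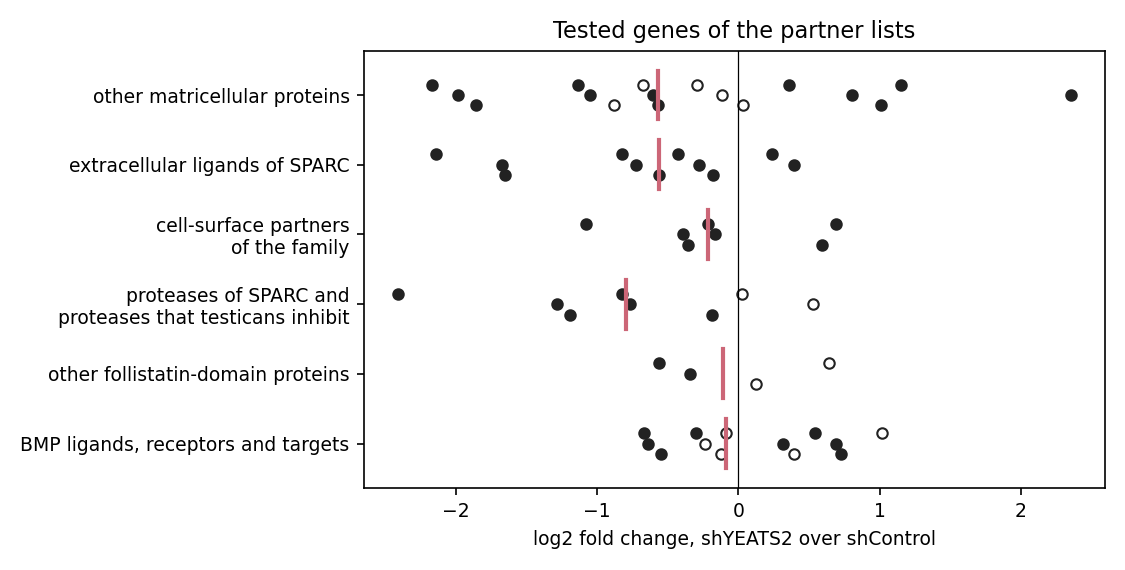
Log2 fold change of every tested gene of the 6 partner lists, 1 row for each list and 1 point for each gene (filled where called, open where not), with a red bar at the list's median. The points of the SPARC ligands and the proteases lie mostly below 0 (medians −0.56 and −0.80), and those of the BMP list lie on both sides of it (median −0.09).

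Proteases that cleave SPARC or that testicans inhibit were called lower in 6 of 8 tested genes of 10, with 0 higher (0 also at an unadjusted p under 0.05, and 0 by DESeq2) and a median of −0.80, beside 23.6% lower over all tested genes. MMP7 (matrilysin) had the largest fall, from 22.6 and 24.3 CPM to 4.82 and 3.65 CPM (log2 fold change −2.41, SE 0.13, edgeR adjusted p = 1.44e-25). MMP2, a gelatinase, fell by 1.29 on the log2 scale, and its activator MMP14, the membrane-type protease that testicans restrain, fell by 1.19. CTSL, the cathepsin that testican-1 inhibits, was called at −0.18, a call lost with library totals alone (−0.05) and without shControl replicate 1 (−0.14). SPOCK1 was thus called higher while MMP2, MMP7, MMP14 and the testican gene SPOCK3 were called lower. A link between these changes was not tested.

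The cell-surface partners gave 5 lower and 2 higher calls among 7 tested of 11, with a median of −0.21, beside 23.6% and 22.6% over all tested genes. Most of the falls were small. The lower calls went from 5 to 3 at an adjusted p under 0.01 and to 1, that of CD14, at 2-fold or more. ITGB3, the integrin beta chain that pairs with the alpha V chain, rose from 9.63 and 9.92 CPM to 15.2 and 16.6 CPM (log2 fold change 0.69, SE 0.11, edgeR adjusted p = 6.75e-07). ITGAV, which encodes that alpha V chain, was called lower at −0.39. CD14, a co-receptor of TLR4, fell by 1.08 (SE 0.36, edgeR adjusted p = 0.0103), and its call was lost in 4 of 14 alternatives, with the value at −0.48 without shYEATS2 replicate 1. Of the proteins that FSTL1 binds, DIP2A fell by 0.35 and TLR4 rose by 0.60, while the scavenger receptor STAB1, which takes up SPARC, had 0 to 2 counts a library.

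Among 14 BMP ligands, receptors and targets, 13 were tested, 4 were called lower and 4 higher, with a median of −0.09, which is near the background of 23.6% lower and 22.6% higher. BMP4, the ligand that FSTL1 binds, rose from 3.95 and 3.81 CPM to 6.91 and 5.68 CPM (log2 fold change 0.73, SE 0.17, edgeR adjusted p = 2.7e-04), a call lost without shYEATS2 replicate 1 at 0.54. ID3, a direct BMP target, fell from 171 and 162 CPM to 110 and 98.4 CPM (log2 fold change −0.66, SE 0.06, edgeR adjusted p = 8.04e-14). ID1 (−0.55) and ID2 (−0.64), from the same list, were called lower as well. SMAD7, an inhibitor of the pathway that BMP signals also induce, rose by 0.69 on the log2 scale, unlike these ID genes. Of 8 other follistatin-domain genes 4 were tested, 2 were called lower and 0 higher, beside 23.6% and 22.6% over all tested genes. The larger fall was that of AGRN (agrin, −0.56, SE 0.07, edgeR adjusted p = 1.06e-09). By DESeq2 this list had 0 higher too, and FSTL3 had an unadjusted p of 0.0401 at 0.13.

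The genes with a profile most like that of SPARC were sought by the Euclidean distance between centred log2 CPM values over the 4 libraries, among 2476 tested genes within 2-fold of its mean level. The nearest were HMCN1 (hemicentin 1, a matrix protein; distance 0.117), KRT16 (a stress keratin; 0.132), MAGEA12 (a cancer-testis antigen; 0.198), CCN5 (0.247) and SYTL2 (a vesicle-transport protein; 0.297). HMCN1 went from 7.94 and 7.36 CPM in shControl to 1.54 and 1.70 CPM in shYEATS2, a log2 fold change of −2.26 against −2.27 for SPARC. Levels of these genes were not compared per kb of exon. Over 4 libraries of 2 conditions such likeness says little more than that the genes fell by a similar amount, from −2.17 to −2.42 here. KRT16 and MAGEA12 belong to families with near-identical copies, and reads shared with those copies make their counts uncertain.

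The neighbours of the called members did not share a common direction. Here before and after mean lower and higher chromosome coordinates. The called members are all on the minus strand, so a gene before a member lies on the side away from its promoter. FAT2, an atypical cadherin 69.77 kb before SPARC on chromosome 5, fell from 7.98 and 7.81 CPM to 1.66 and 0.509 CPM (log2 fold change −2.63, SE 0.22, edgeR adjusted p = 5.5e-14), a value that was −3.96 without shYEATS2 replicate 1. The shYEATS2 libraries held 42 and 6 counts of FAT2, so it could not be tested with at least 10 counts in every library. By DESeq2 its value was −2.80 with a wider SE of 0.69. ATOX1, a copper chaperone 55.34 kb after SPARC, did not pass the test at −0.09 (edgeR adjusted p = 0.352). With library totals alone ATOX1 stood at 0.04.

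Around SPOCK3, TLL1 (an astacin protease, 628.9 kb before) fell by 1.81 on the log2 scale (SE 0.12, edgeR adjusted p = 2.87e-21), and ANXA10 (an annexin, 857.7 kb after) rose by 1.07 (SE 0.20, edgeR adjusted p = 6.88e-06). Around SPOCK1, SMAD5 (a BMP signal transducer, 786.6 kb before) was called lower at −0.30 (SE 0.07, edgeR adjusted p = 4.48e-04), a call lost with library totals alone (−0.16) and without shControl replicate 2 (−0.21). KLHL3 (19.12 kb after) was called higher at 0.56 (SE 0.24, edgeR adjusted p = 0.0437), but its conditions overlapped, with 1.87 and 2.62 CPM in shControl and 3.83 and 2.46 CPM in shYEATS2. Its call was lost in 6 of 14 alternatives, and without shYEATS2 replicate 1 its value was 0.13. None of the 3 called members had neighbours called in the same direction on both sides.

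**Figure D4:**
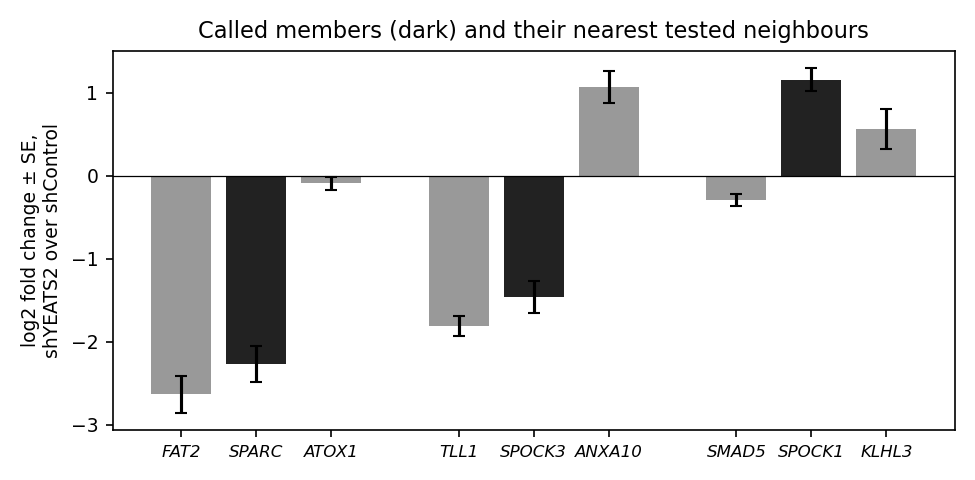
Bars give the log2 fold change ± SE of the 3 called members (dark) and of the nearest tested protein-coding gene on either side (grey), with each trio in chromosome order and the spacing not to scale. FAT2 (−2.63) falls beside SPARC (−2.27) while ATOX1 is at −0.09 (0.04 with library totals alone), and SPOCK1 (1.16) rises between SMAD5 (−0.30) and KLHL3 (0.56).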

How the data were processed

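The authors prepared stranded mRNA libraries from BICR10 cells, sequenced read pairs of 150 bp, aligned them to GRCh38 with STAR and deposited HTSeq counts per gene without normalization. The annotation release and the strand setting of the counting are not given in the sources used here. Reads given to no gene (12.4% to 13.4% of each library) were left out. Genes passing filterByExpr (17058) entered the quasi-likelihood test of edgeR 4.0.16 (robust, TMM factors, R 4.3.3), with Benjamini-Hochberg adjustment over all of them and a call at an adjusted p under 0.05. Replicates varied by 4.95% (common biological coefficient of variation). The smallest p of an exact permutation test of 2 libraries against 2 is 0.333. CPM values are TMM-scaled, and each ± is an SD unless named SE. Exon lengths and positions came from GENCODE release 44, which holds 60295 of the genes, and promoters from RefSeq. Length per gene is the union of its annotated exons, whichever isoform is expressed. Poisson intervals are exact at 95% and, like the limit of 3 counts for a gene at 0, cover counting error only.

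The members and the partner and marker lists were chosen with earlier results of these data known. Named are YEATS2, the members, in each partner list the largest fall and rise among called genes of at least 1 CPM with separate conditions, the 5 genes most like SPARC, and the nearest tested protein-coding neighbours of called members. COL1A1, COL1A2, POSTN, TGFBI, THBS1, MMP2, MMP14, CTSL, ITGAV, DIP2A, TLR4, ID1, ID2, SMAD7, STAB1, FSTL3 and the single markers were named after their values were seen. The steps were tested on simulated data in which a small share of the genes changed, with rises and falls drawn alike. The rate of false calls under changes as widespread as those here was not tested. The alternatives changed the scaling (DESeq2 size factors, upper quartiles, library totals), the filter (none, or a minimum of 10 counts per library), the test (limma-voom from limma 3.58.1, DESeq2 1.42.0, the likelihood ratio test in edgeR), the threshold (0.01, or 2-fold and more) and the libraries (thinned to equal totals, blocked by replicate number, or 1 left out).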

Additional observations from a re-analysis of the deposited data

How the results depend on the processing

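The family's 2 lower calls were found under all 16 alternatives and its 1 higher call under 15 of them, library totals alone giving 2, with FSTL1 at 0.23. With each library left out in turn, the lone library being assumed to vary like the other condition, SPARC ranged from −2.37 to −2.11, SPOCK3 from −2.23 to −1.17, SPOCK1 from 1.01 to 1.33, SPOCK2 from −0.49 to −0.30, SMOC1 from 0.21 to 0.77, FSTL1 from 0.07 to 0.12 and SPARCL1 from −0.53 to 0.024, the last without shControl replicate 2. ATOX1 turned to 0.042 with library totals. The epithelial marker SFN, not called at 0.017, ranged from −0.060 to 0.063 with 1 library left out, was −0.032 with no filter and was called higher at 0.15 with library totals. Calls over all genes were 2567 lower and 5441 higher with library totals, 631 and 1022 at 2-fold or more, and 2949 and 2820 by DESeq2. Same-numbered libraries did not deviate together over the tested genes (correlation −0.0189), so no pairing was shown. Counting error of low genes can weaken this correlation, so it cannot exclude a pairing. With the replicate block SPARC was −2.28, SPOCK3 −1.49 and SPOCK1 1.16, with 2 members lower and 1 higher and 4142 and 3870 calls over all genes. SPARCL1 and SMOC1 could not be tested with at least 10 counts in every library or after thinning, and with 2 libraries a condition no outlier could be tested. The lower calls of the cell-surface list went from 5 to 3 with library totals and without either shControl library. The cause of these shifts was not tested.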
